A study of Mus musculus with 10 samples.

Results

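Sense intronic genes are non-coding genes annotated inside an intron of another gene, on the same strand as that host. The genes described here were chosen by their measured level: they are the sense intronic genes of GENCODE release M21 whose FPKM (fragments scaled by transcript length and by library size), summed over their transcripts, averaged at least 0.1 over the 10 samples. They numbered 141 of the 327 sense intronic genes in the deposited table, which holds 14787 genes and assembled loci in all. The choice used the level of each gene over both genotypes together, so the levels below are a description. The rule also set aside AU023070, AC158549.1 and symbols ending in os, which removed 0 sense intronic genes. The last members inside the threshold were Gm47798 (mean 0.102 FPKM), AC132307.1 (0.1004 FPKM) and Gm42463 (0.1003 FPKM), and the first outside it were Gm43773 (0.0993 FPKM), Gm14093 (0.0990 FPKM) and Gm28112 (0.0981 FPKM).

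The samples were left ventricle of C57BL/6 mice (C57BL/6N in the design text), taken 6 weeks after transverse aortic constriction (TAC), in which the aorta is narrowed so that the left ventricle pumps against raised pressure. Of the 10 samples, 4 were labelled Sirt5 knockout (replicates 2, 3, 4 and 5) and 6 wild type (replicates 1, 3, 4, 5, 6 and 7), and all had TAC. SIRT5 is a mitochondrial sirtuin that removes acyl groups such as succinyl from lysine, and the study asks what it does in myocardial hypertrophy. The design text describes male mice 5 weeks old, a conventional CRISPR-Cas9 knockout and also a tamoxifen-inducible Cre-ERT2 system (1 mg daily for 10 days, with 4 weeks before surgery), and does not say which animals each applies to. It names no promoter for the Cre, does not say whether tissue of several mice was pooled, and lists more than 1 kit for ribosomal RNA removal without assigning samples to them. Since separate animals are not stated, the p-values speak only for the spread of these samples, part of which may be technical. The table holds long non-coding transcripts: Sirt5 and 9 further genes of heart muscle, fibroblasts and endothelium that were looked for had 0 rows, so neither the knockout nor the tissue label could be checked.

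An intron is cut out of the host's primary transcript during splicing, and the excised RNA is normally degraded in the nucleus. RNA read from inside an intron can therefore come from unspliced or excised host RNA as well as from an independent transcript that starts within the intron. Libraries made from total RNA after removal of ribosomal RNA, as here, keep such nuclear RNA. In tissue samples, fewer cells that express a host and less RNA per cell cannot be told apart.

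By coordinates on GRCm38, 139 of the 141 genes lay wholly within a protein-coding gene on their own strand, and 138 of these touched no annotated exon of that host. The exceptions were Gm44836, which overlaps an exon of Cebpg, Gm48617, which extends beyond Meox2, and Gm28119, which has no coding host. A single host intron held the whole gene in 137 cases, and in 36 of them this was the host's first intron. The host intron had a median length of 26889 bases, with a median of 5210 bases from the host's upstream exon to the sense intronic gene and 7962 bases from it to the downstream exon. The 139 genes with a host fell into 124 hosts, of which 0 have a row of their own in the table. Host RNA was thus not measured, and the part of unspliced host RNA in any value below was not tested. Of 134 genes on a list of heart muscle genes, 1 was a host (Casq2, the calcium buffer of the sarcoplasmic reticulum), and of 52 genes of vessels, fibroblasts and immune cells 0 were. The share of hosts among all coding genes was not set beside these counts, so they are a description only. The heart list leaves out Erbb4, a host named below.

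The genes fell into 2 structures. Of the 141, 99 had a transcript of their own with at least 2 exons, and 42 consisted of a single exon. The spliced ones carry an exon junction whose sequence does not occur in the host's unspliced RNA. In Gm29358, counted among the 99, the transcript with the highest mean has 1 exon and so no junction. The junctions of 4 spliced genes whose genotype values are given below are shown with the last 20 bases of the first exon in lower case and the first 20 bases of the next exon in capitals, 5′ to 3′ in the transcript, from GENCODE M21 transcripts on GRCm38.
AC154492.2: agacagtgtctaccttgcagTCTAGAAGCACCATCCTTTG
Gm28499: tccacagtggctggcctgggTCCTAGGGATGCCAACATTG
1700015C17Rik: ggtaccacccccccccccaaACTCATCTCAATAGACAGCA
Gm13380: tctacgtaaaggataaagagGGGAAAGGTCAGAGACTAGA

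The joined exons are chr17:86970402-86970421 and chr17:86973461-86973480 on the plus strand for AC154492.2, and chr1:89568802-89568821 and chr1:89570450-89570469 on the plus strand for Gm28499. They are chr3:153478187-153478206 and chr3:153475545-153475564 on the minus strand for 1700015C17Rik, and chr2:20931285-20931304 and chr2:20922453-20922472 on the minus strand for Gm13380. The intron removed between them is 3039, 1628, 2622 and 8812 bases long in the same order. The deposited FPKM does not separate fragments that cross these junctions from fragments within an exon.

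A single-exon gene has no such junction, and every base of it is also a base of the host's intron. The last 60 bases of 2 single-exon genes are shown, with the cleavage and polyadenylation hexamer AATAAA in capitals where it occurs.
Gm43462: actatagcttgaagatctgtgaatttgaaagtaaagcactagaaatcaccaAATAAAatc
Gm43330: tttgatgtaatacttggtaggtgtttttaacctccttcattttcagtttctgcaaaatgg

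These ends lie at chr3:100627297-100627356 and chr3:105782875-105782934, both on the minus strand. Of the pair, the end of Gm43462 holds the hexamer. Over all 141 genes, AATAAA on the transcript's strand stood within the last 40 bases of 26 (18.4%). It stood there in 13 of 99 spliced genes (13.1%) and in 13 of 42 single-exon genes. Among other annotated genes with a mean of at least 0.1 FPKM, the share was 38.9% for lincRNA, 36.4% for antisense genes, 41.0% for processed transcripts and 18.5% for the TEC class, which awaits experimental evidence and is almost wholly of single-exon genes. A match is only these letters anywhere in the window, at no set distance from the end. Neither a match nor its absence shows how the end was made.

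Libraries held an estimated 22700000 to 25800000 mapped fragments in knockout and 24700000 to 29800000 in wild type, from the value that 1 fragment adds to FPKM times transcript length. At this depth the 141 genes rested on few fragments, with a median of 10.2 per sample and gene and a range of means from 0.918 to 201. The mean was below 10 fragments for 68 of them. By level, 18 genes averaged at least 1 FPKM, 35 lay between 0.5 and 1, and 88 below 0.5 (median 0.389 FPKM). A mean of at least 0.1 FPKM was reached by 43.1% of sense intronic genes, against 40.2% of genes at bidirectional promoters, 37.0% of processed transcripts, 16.7% of antisense genes, 15.8% of TEC genes and 9.83% of lincRNA. Fragments could be ambiguous for some: 25 of the 141 shared more than 10% of their 31-base words with annotated transcripts of genes other than themselves and their host, and 59 shared none. Knockout replicate 5 stood apart in the table: Malat1, a non-coding RNA retained in the nucleus, was at 951 FPKM there, against 59.8 to 78.9 FPKM in the other 3 knockout samples and 58.4 to 81.8 FPKM in wild type.

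Of the 12 genes with the highest mean, 11 are described, in hosts with varied roles. Differences below are knockout minus wild type on the log2(FPKM + 0.1) scale. Gm17491, in the first intron of the phosphate transporter gene Slc20a2, had 1.89 ± 0.275 FPKM in knockout and 1.80 ± 0.694 FPKM in wild type (SD, n = 4 and n = 6). C230066G23Rik, in the last intron of Lrrc8c, a subunit gene of the volume-regulated anion channel, had 1.75 ± 0.778 FPKM in knockout and 1.502 ± 0.342 FPKM in wild type, with 2.84 FPKM in knockout replicate 5 and 1.02 to 2.03 FPKM in the other 9 samples. Gm44699, in the gene of the actin crosslinker Actn4, had 1.42 ± 0.484 FPKM in knockout and 1.62 ± 0.275 FPKM in wild type. The genotypes overlapped in all 3.

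Gm20705 lies in an intron of Gm20696, a coding gene that shares its place with Foxp1, the gene of a forkhead transcription factor, and had 1.71 ± 0.357 FPKM in knockout and 1.70 ± 0.511 FPKM in wild type. Gm47447, in Elmsan1, whose product binds histone deacetylases, had 1.49 ± 0.255 FPKM in knockout and 1.34 ± 0.338 FPKM in wild type. Gm47357, in Hdac9, a class IIa histone deacetylase known from mouse work to restrain cardiac hypertrophy, had 0.733, 1.28, 1.19 and 2.54 FPKM in knockout replicates 2 to 5, against 0.696 to 1.76 FPKM in wild type. Of its 31-base words 89.6% also occur in transcripts of other genes, so its fragments may come from elsewhere.

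Gm37963 sits in Usp4, the gene of a deubiquitinase, and Gm37062 in Rev1, the gene of a DNA polymerase that bypasses lesions. Gm37963 had 1.47 ± 0.438 FPKM in knockout and 1.74 ± 0.370 FPKM in wild type. Gm37062 had 1.28 ± 0.157 FPKM in knockout and 1.13 ± 0.304 FPKM in wild type. Gm49512, in the first intron of Tnrc6b, a partner of Argonaute in silencing by microRNAs, had 0.221, 0.693, 1.01 and 1.07 FPKM in knockout replicates 2 to 5. Its 6 wild-type samples ran from 0.548 through a median of 1.46 to 2.10 FPKM, and 5 of these lay above every knockout sample (log2 difference -0.92, SE 0.433, limma adjusted p = 0.604).

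**Figure D1:**
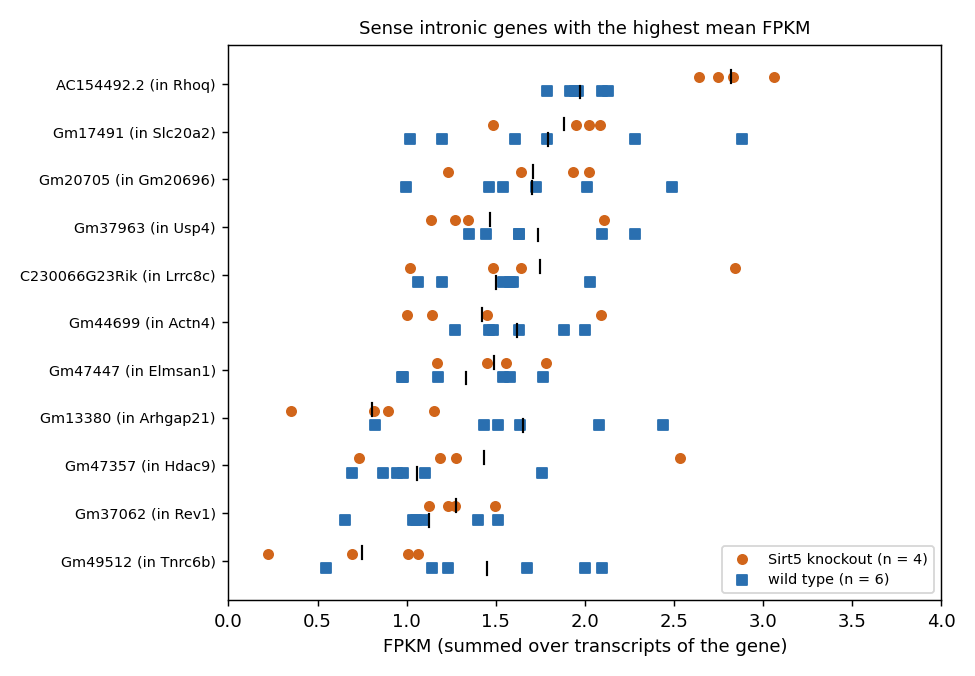
FPKM of 11 of the 12 sense intronic genes with the highest mean, by sample; each point is a sample, orange circles are the 4 knockout and blue squares the 6 wild-type samples, and black ticks are group means. AC154492.2 alone among these has every knockout sample (2.64 to 3.06 FPKM) above every wild-type sample (1.79 to 2.13 FPKM).

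Between genotypes, 0 of the 141 sense intronic genes passed at an adjusted p below 0.05 with limma fitted over 3294 genes and loci, where the background was 2 calls (0.0607%). At an unadjusted p below 0.05, 4 were higher and 5 lower in knockout, or 9 in all (6.38%), against a background of 2.98% higher and 5.53% lower, 8.5% in all. The exact permutation test of each gene (210 relabellings) called 0 after adjustment and 11 at an unadjusted p below 0.05, against a background of 8.56%. The share near or under the background gives no sign that these genes differed more often than others. The median log2 difference was -0.03 over the 141 genes, with 68 higher and 73 lower (51.8%), and -0.04 over all 3294, of which 53.5% were lower. The median stayed within -0.13 and 0.05 under 22 alternatives, some of which leave every difference unchanged and so cannot move it.

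Knockout and wild-type samples were fully separated in 2 of the 141, 1 higher and 1 lower in knockout, against a background of 0.82% higher and 1.34% lower, 2.16% in all. The higher one was AC154492.2 (ENSMUSG00000117628.1, chromosome 17, 86970372 to 86975288, plus strand), in the second intron of Rhoq. Rhoq encodes TC10, a small GTPase known from insulin-stimulated glucose uptake. AC154492.2 had 3.06, 2.64, 2.75 and 2.83 FPKM in knockout replicates 2, 3, 4 and 5, against 1.79, 2.13, 1.92, 1.96, 1.95 and 2.10 FPKM in the wild type (replicates 1, 3, 4, 5, 6 and 7). The lowest knockout sample thus lay above the highest wild-type sample.

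These values rest on 117 to 148 fragments in knockout samples and 87.5 to 107 in wild-type samples, and the spread within genotypes was 0.441 times what counting alone gives. The ratio of the means was 1.43 and the log2 difference 0.49 (SE 0.138, limma adjusted p = 0.430). The exact permutation p was 0.00476, the smallest that 4 against 6 samples can give (adjusted p = 0.341). With each sample left out in turn the log2 difference lay between 0.46 and 0.52, and with every sample scaled to the same total it was 0.33. Of its 31-base words 0 occur in other genes' transcripts, and the junction shown above is its own.

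The lower one was Gm28499 (ENSMUSG00000101662.1, chromosome 1, 89568765 to 89576602, plus strand), with 3 exons, in the first intron of Agap1, the gene of a GTPase-activating protein for Arf that acts in endosomal traffic. It had 0.436, 0.535, 0.586 and 0.640 FPKM in knockout replicates 2 to 5. Wild-type replicates 1, 3, 4, 5, 6 and 7 had 1.08, 1.31, 0.886, 0.849, 0.956 and 0.888 FPKM. The highest knockout sample was below the lowest wild-type sample, at 7.49 to 10.1 fragments in knockout and 14.5 to 22.1 in wild type. The log2 difference was -0.75 (SE 0.203, limma adjusted p = 0.430; exact permutation p = 0.00476, adjusted p = 0.341). With each sample left out in turn it lay between -0.82 and -0.66. Gm28499 lies 109058 bases into an intron of 120529 bases and 3633 bases before the next exon of Agap1.

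**Figure D2:**
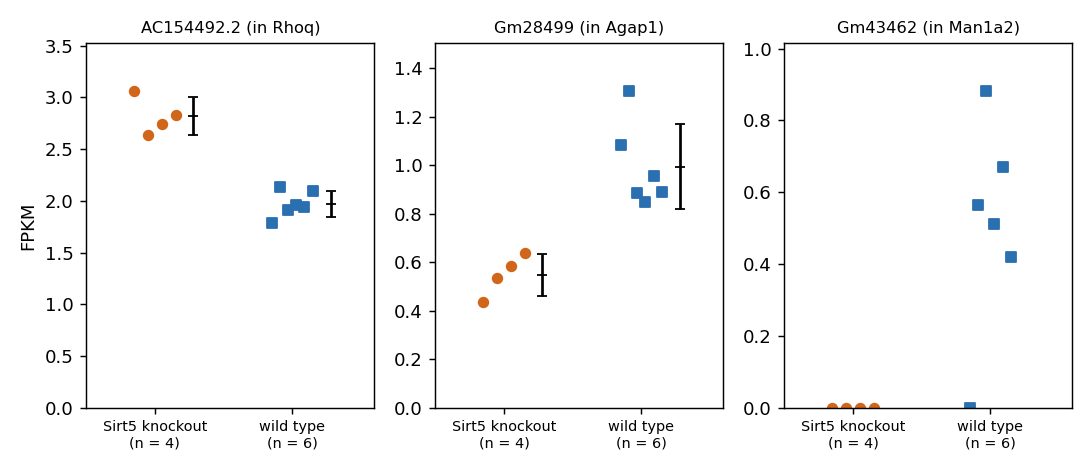
FPKM by sample of AC154492.2, Gm28499 and Gm43462 in 4 knockout (orange) and 6 wild-type (blue) samples; bars beside the first 2 genes are the mean and SD. The genotypes do not overlap in AC154492.2 and Gm28499, and Gm43462 is at 0 in all 4 knockout samples and in wild-type replicate 1.

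The smallest limma p among the 141 belonged to a single-exon gene, Gm43462 (ENSMUSG00000105561.1, chromosome 3, 100627297 to 100630944, minus strand), inside Man1a2, the gene of a Golgi mannosidase that trims N-glycans. It was listed at 0 FPKM in knockout replicates 2, 3, 4 and 5 and in wild-type replicate 1. Wild-type replicates 3, 4, 5, 6 and 7 had 0.564, 0.882, 0.512, 0.669 and 0.420 FPKM, or 37.8 to 96.0 fragments. The limma adjusted p was 0.337, and the exact permutation p was 0.0381 (adjusted p = 0.546). Without wild-type replicate 1 the limma adjusted p was 0.0123, within 0.0123 to 0.778 over 21 alternatives. That replicate was the only wild-type sample at 0, so leaving it out separates the genotypes by construction. Whether a listed 0 stands for absent RNA or for a failed estimate was not tested, and no fold is given against it.

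Some other spliced genes were among the 6 with the smallest limma p in their direction. Of these, Gm13380 (chromosome 2, 20921860 to 20931389, minus strand) lies in Arhgap21, the gene of a GTPase-activating protein. It had 0.354, 1.153, 0.897 and 0.817 FPKM in knockout replicates 2 to 5, against 1.43, 2.08, 2.44, 1.64, 0.825 and 1.51 FPKM in the wild type (replicates 1, 3, 4, 5, 6 and 7). All knockout samples lay below 5 of the 6 wild-type samples, and wild-type replicate 6 lay among the knockout samples (log2 difference -0.98, SE 0.338, limma adjusted p = 0.520).

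Gm49422, in Khdrbs3, an RNA-binding protein gene, had 0.237 ± 0.135 FPKM in knockout and 0.558 ± 0.221 FPKM in wild type (SD, n = 4 and n = 6; limma adjusted p = 0.578). It rested on 0.554 to 5.46 fragments a sample. AC157784.1, in Ccbe1, which is needed for lymphatic growth, had 0.164 ± 0.0720 FPKM in knockout and 0.341 ± 0.125 FPKM in wild type (limma adjusted p = 0.597). Gm44836, which overlaps an exon of the transcription factor gene Cebpg, had 0.926 ± 0.455 FPKM in knockout and 0.514 ± 0.110 FPKM in wild type (limma adjusted p = 0.578). Its log2 difference of 0.67 was 0.40 without knockout replicate 5, where it stood at 1.58 FPKM. Gm19938, in the first intron of Xkr4, had 0.152 ± 0.0649 FPKM in knockout and 0.0717 ± 0.0289 FPKM in wild type (limma adjusted p = 0.727). Groups overlapped in these 4.

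St6galnac3, the gene of a sialyltransferase, held 2 spliced members, in different introns, whose knockout means lay on opposite sides of the wild type. 1700015C17Rik had 0.439, 0.649, 0.637 and 0.650 FPKM in knockout replicates 2 to 5, against 0.164 to 0.546 FPKM in wild type (log2 difference 0.66, SE 0.301, limma adjusted p = 0.586). It rested on 1.11 to 3.74 fragments a sample. 1700012D16Rik had 0.376, 0.448, 1.19 and 0.560 FPKM in knockout replicates 2 to 5, against 0.716 to 1.09 FPKM in wild type (log2 difference -0.53, SE 0.290, limma adjusted p = 0.666). Knockout replicate 4 was the highest of the 10 samples in it, while the other 3 knockout samples were the lowest.

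Some hosts are tied to heart muscle or to the cofactor of sirtuins, and the genes inside them were picked out here after their values were seen. Gm16076, in Erbb4, the neuregulin receptor of heart muscle cells, had 0.552 ± 0.299 FPKM in knockout and 0.986 ± 0.421 FPKM in wild type (limma adjusted p = 0.626). Gm16014, in Cd38, whose product degrades the sirtuin cofactor NAD+, had 0.719 ± 0.152 FPKM in knockout and 0.798 ± 0.389 FPKM in wild type (limma adjusted p = 0.985). Gm43244, in Casq2, was listed at 0 in all 4 knockout samples and in 4 wild-type samples, and had 1.68 FPKM in wild-type replicate 1 and 1.02 FPKM in wild-type replicate 6 (limma adjusted p = 0.742).

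**Figure D3:**
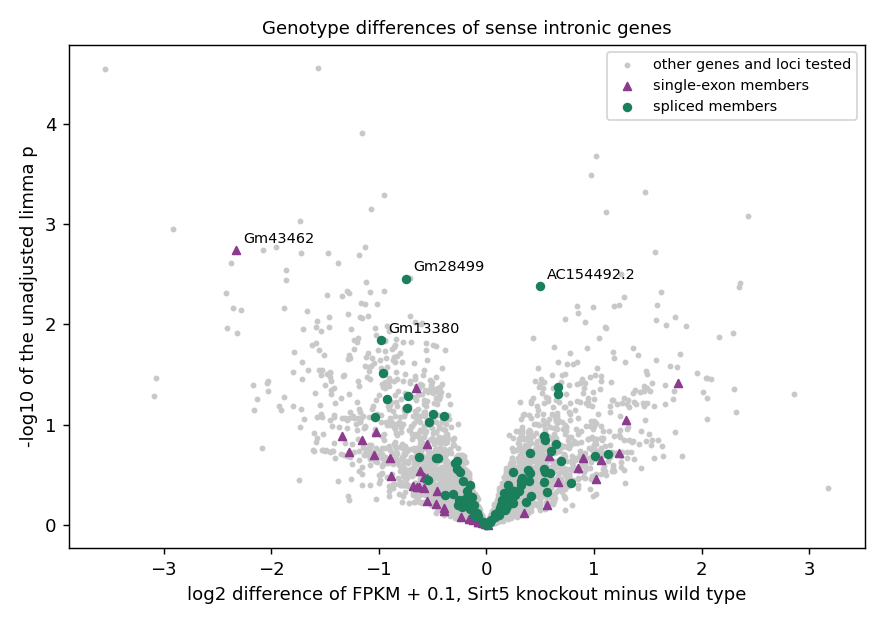
Log2 difference of FPKM + 0.1, knockout minus wild type, against -log10 of the unadjusted limma p for 99 spliced (green circles) and 42 single-exon (purple triangles) sense intronic genes and the other genes and loci tested (grey). The labelled genes are those with the smallest p among the 141, and 0 of the 141 pass after adjustment.

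Detection went with exon structure. Of the 99 spliced genes, 84 were above 0 in all 10 samples and 4 were at 0 in 5 or more. Gm29358, whose highest transcript has 1 exon, was among these 4. Of the 42 single-exon genes, 4 were above 0 in all 10 samples and 28 were at 0 in 5 or more. Depth was of similar size in both structures: the mean per gene had a median of 12.3 fragments in single-exon genes and 9.89 in spliced genes. The spread within genotypes had a median of 19.3 times the counting spread (as a variance) in single-exon genes and 1.80 times in spliced genes.

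Single-exon genes of other classes were also less often above 0 in all samples than spliced ones. Single-exon genes were above 0 in all samples in 9.70% of 505 TEC genes, 14.6% of 41 lincRNA and 13.2% of 38 antisense genes. Spliced genes were so in 73.9% of 533 lincRNA and 71.6% of 457 antisense genes. The extent varied by class: 66.7% of the 42 single-exon sense intronic genes were at 0 in 5 or more samples, against 65.5% of single-exon TEC genes, 39.0% of lincRNA and 34.2% of antisense genes. The spread over counting had a median of 19.3 in the 42, against 25.0, 11.2 and 10.1 in those classes. Of the single-exon genes 3 of 42 shared more than 10% of their 31-base words with other genes' transcripts, against 22 of 99 spliced genes, while the median share was 0.788% in single-exon and 0.229% in spliced genes. Of the 42, 24 lay on chromosome 3, between 94413401 and 119746446, among them all single-exon genes of Rap1a, Magi3 and Man1a2, whose values are given below. Chromosome 3 held 5 of the 99 spliced genes. Of the sense intronic genes outside the threshold, it held 17 of 107 above 0 and 20 of 79 at 0 in every sample.

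**Figure D4:**
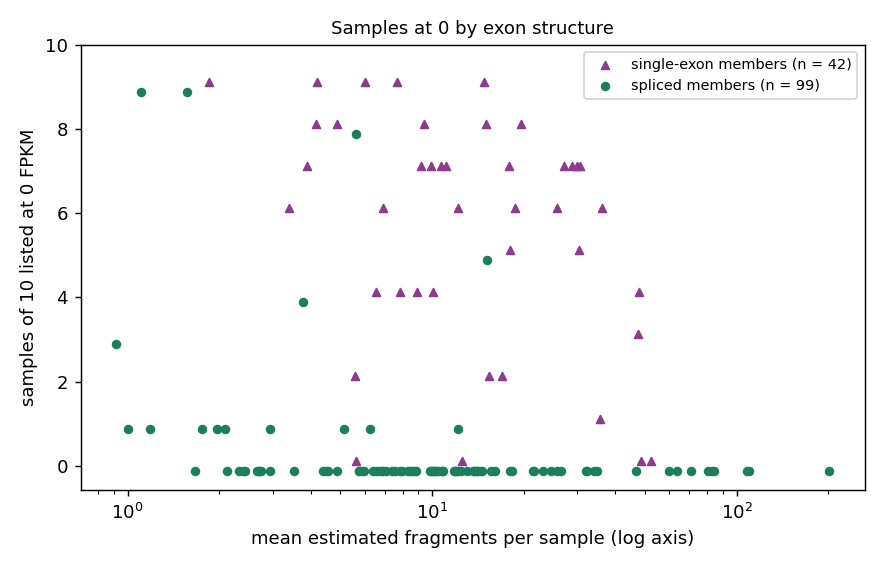
Number of the 10 samples in which a gene was listed at 0 FPKM, against its mean estimated fragments per sample (log axis), for 42 single-exon and 99 spliced sense intronic genes; points are shifted slightly up and down by structure. Of the single-exon genes 28 are at 0 in 5 or more samples, against 4 of the spliced genes, over similar numbers of fragments.

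By structure, the median log2 difference was 0.08 in spliced genes (56 of 99 higher) and -0.40 in single-exon genes (30 of 42 lower), against -0.04 over all 3294 genes and loci. The spliced median was -0.05 with every sample scaled to the same total, and -0.01 without knockout replicate 5, so its sign was not stable. The single-exon median stayed between -0.67 and -0.10 under 22 alternatives, some of which leave every difference unchanged. Genes at 0 throughout a genotype entered through the other genotype alone, so their sign was fixed by the choice. At 0 in every knockout sample were Gm43462, Gm43244, Gm42702, Gm29170, Gm43768, Gm43331, Gm43378, Gm44190, Gm47798 and AC132307.1. Single-exon genes at 0 in every wild-type sample were fewer, namely Gm20274 and Gm19409. Of the 10 samples 6 are wild type. Whether this choice of genes and the unequal groups give the sign was not tested. The absolute log2 difference had a median of 0.60 in single-exon genes, 0.25 in spliced genes, 0.35 over all tested and 0.58 in TEC genes, which are nearly all of a single exon. The signed median of the TEC genes was -0.05, with 52.8% lower; its difference from that of the 42 was not tested. Of the 42, 1 was higher and 2 were lower at an unadjusted limma p below 0.05 (7.14%), against 8.5% of all tested. Summed FPKM of the 42 was 11.4, 14.95, 11.2 and 10.1 in knockout replicates 2 to 5, against 19.3, 12.3, 15.1, 18.2, 11.7 and 12.7 in the wild type (replicates 1, 3, 4, 5, 6 and 7). Knockout and wild-type samples overlapped in this sum.

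Genes that share a host show how the single-exon values switched. Of 124 hosts, 9 held more than 1 of the 141, with 24 genes between them. Rap1a, the gene of a Ras-like GTPase of cell adhesion, held 3 in its second intron, and the third, Gm43331, was above 0 only in wild-type replicate 1 (1.37 FPKM). Gm43330 stood at 2.23, 0.173, 0 and 0 FPKM in knockout replicates 2 to 5, against 2.31, 0, 0, 0, 0 and 1.86 FPKM in the wild type (replicates 1, 3, 4, 5, 6 and 7). Gm43329 stood at 1.24, 0, 0.821 and 0 FPKM in knockout, against 1.25, 0, 0.923, 0, 0.0723 and 1.42 FPKM in wild type, in the same order. The same 3 libraries, knockout replicate 2 and wild-type replicates 1 and 7, were highest in both. The 3 genes together held 227, 8.98, 60.1 and 0 fragments in knockout and 295, 0, 89.0, 0, 6.64 and 212 in wild type, so all 3 were listed at 0 together in knockout replicate 5 and wild-type replicates 3 and 5.

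Magi3, the gene of a scaffold protein at cell junctions, held 5 single-exon genes, 4 in its first intron and Gm42700 in the second, and these did not switch together. Gm42701 was above 0 in 9 samples, at 0.532 to 1.62 FPKM in knockout and 0 to 1.67 FPKM in wild type. The 0 was in wild-type replicate 5. Gm43256, also in the first intron, had its highest value there, at 2.64 FPKM, with 0.840 FPKM in knockout replicate 3, 0.437 FPKM in wild-type replicate 1 and 0 in the other 7. Gm43258 had 1.502 and 0.689 FPKM in knockout replicates 2 and 5, 2.09 FPKM in wild-type replicate 4, 0.520 FPKM in wild-type replicate 6, and 0 in the other 6. Gm42702 was listed at 0 in all 4 knockout samples and had 0.0963, 0.788 and 1.40 FPKM in wild type (replicates 1, 3 and 4). Summed over the 5 genes, every sample was above 0, at 25.99 to 109 fragments in knockout and 14.0 to 394 in wild type.

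Man1a2 held 3 single-exon genes, among them Gm43462. Gm43466 was above 0 in all samples, at 0.483, 0.0894, 0.203 and 0.439 FPKM in knockout replicates 2 to 5, against 0.277 to 0.602 FPKM in wild type. Gm43463 had 0.385 FPKM in knockout replicate 2 and was listed at 0 in the other 3 knockout samples, against 1.21, 0.413 and 0.526 FPKM in wild type (replicates 1, 4 and 5). The other 3 wild-type samples were at 0. Wild-type replicate 1, the only wild-type sample with Gm43462 at 0, was the highest of all in Gm43463. Summed over the 3, the samples had 82.9, 11.2, 24.0 and 54.2 fragments in knockout and 88.7 to 183 fragments in wild type. In FPKM the genotypes overlapped in this sum, with 0.868 in knockout replicate 2 and 0.840 in wild-type replicate 3. It includes Gm43462, which was listed at 0 in every knockout sample. That sum was taken after the values were seen and has no test.

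**Figure D5:**
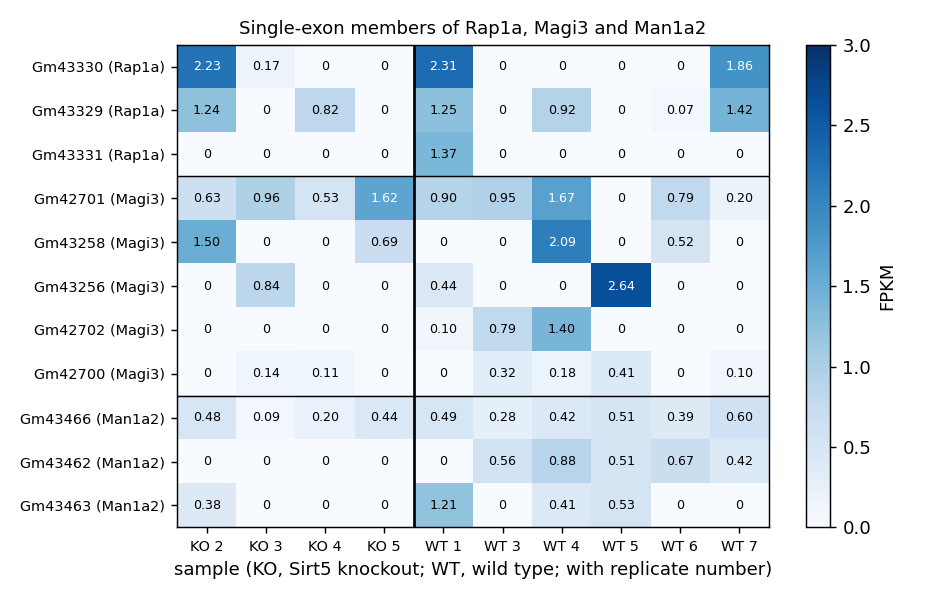
FPKM in each of the 4 knockout (left) and 6 wild-type (right) samples of the 11 single-exon sense intronic genes inside Rap1a, Magi3 and Man1a2, with the value printed in each cell and darker blue for higher FPKM. Gm43330 and Gm43329 in Rap1a are highest in the same libraries, while the Magi3 genes are highest in different ones.

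Spliced genes that share a host included Gm47587 and Gm30409, in 1 intron of 2010111I01Rik. Gm47587 stood at 0.263 to 0.621 FPKM in knockout and 0.203 to 0.595 FPKM in wild type. Gm30409 stood at 0.329 to 0.582 FPKM in knockout and 0.160 to 0.739 FPKM in wild type, so both were above 0 in every sample. Of the 31-base words of Gm47587, 79.0% occur in other genes' transcripts, against 0 for Gm30409. In Gramd1b, a sterol transfer protein gene, the adjacent Gm48129 and Gm48127 were both highest in wild-type replicates 4 and 5, at 0.958 and 1.11 FPKM for Gm48129 and 0.606 and 0.794 FPKM for Gm48127. Knockout samples had 0.173 to 0.883 FPKM of Gm48129 and 0 to 0.278 FPKM of Gm48127.

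Knockout replicate 5, the library with high Malat1, was the highest of the 10 samples in 27 of the 141 genes (19.1%), as in 17.9% of all tested genes and loci. It was the lowest in 10 (7.09%), against 16.3% of all tested. By a gap of at least 1 on the log2 scale it was highest or lowest in 1 (0.709%), against 6.13% of all tested. Among the 99 spliced genes it was highest in 25, and their summed FPKM was 50.2, 63.0, 57.2 and 69.3 in knockout replicates 2 to 5 and 54.3 to 64.2 in wild type. Wild-type replicate 5, whose Malat1 was 58.4 FPKM, was the highest in 25 of the 141 (17.7%), against 9.41% of all tested. The part of RNA quality or nuclear content in these values was not tested.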

How the data were processed

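RNA of 10 left ventricle samples was sequenced, 4 Sirt5 knockout and 6 wild type by their titles. The design text says that the authors depleted ribosomal RNA, digested the second cDNA strand, mapped reads to GRCm38 with HISAT2 and computed the deposited FPKM with StringTie 1.2.0. HTSeq 0.6.1 counts named there were not used here. Use of strand by StringTie, and the choice of transcripts, are not given in the sources used here; reads of an opposite-strand gene may be included.

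Of 20741 transcripts, 18969 matched GENCODE M21 (GRCm38), and FPKM were summed per gene. The 3294 genes and loci with a mean of at least 0.1 FPKM were tested as log2(FPKM + 0.1) with limma 3.58.1 (R 4.3.3; trended empirical Bayes, genotype the only term, Benjamini-Hochberg adjustment, two-sided), and with a two-sided exact permutation test. That scale understates changes of low genes. The fit was run on simulated data with values normally spread on the log2 scale. Such data do not stand for genes that switch between 0 and a high value. A host is the shortest same-strand coding gene containing the whole member. Per-sample fragments are FPKM times transcript length divided by the most frequent low value of that product. Among products up to about 5 fragments, 34.4% to 38.8% per sample lay within 0.02 of a multiple of 0.5, so fragment numbers are estimates. Counting spread covers counting error only. Words of 31 bases were compared with GENCODE M21 transcripts. Tables were handled with pandas 2.3.3 in Python 3.11.15.

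Genes named were the 12 highest, the 6 smallest p in each direction, those without overlap, up to 10 sharing a host and those in heart-list hosts; 3 on each side of the threshold are given too. Members, lists and rules were chosen with earlier results of these data known. Further genes of shared hosts, and the sense intronic genes of Erbb4 and Cd38, were named after their values were seen. Some single values are not reported here.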

Additional observations from a re-analysis of the deposited data

Results flagged for a closer look

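Within genotypes, 63 groups of values of named genes and sums were searched for a sample farther from the rest than Dixon's test allows at 95%, and 6 had one, 3 in knockout and 3 in wild type. Chance gives about 1 in 20 groups where values are normally spread. That rate does not apply to groups with many values at 0, and a lone value above 0 is always flagged. Knockout replicate 5 was among them in 0 cases.

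1700015C17Rik, in St6galnac3, was at 0.439 FPKM in knockout replicate 2 and at 0.637 to 0.650 FPKM in the others, on fewer than 4 fragments each. The other 5 groups came from 4 single-exon genes that switched between 0 and a high value. Gm43330 was at 2.23 FPKM in knockout replicate 2 and 0 to 0.173 FPKM in the other knockout samples. Gm43256 was at 0.840 FPKM in knockout replicate 3 with 0 in the others, and at 2.64 FPKM in wild-type replicate 5 with 0 to 0.437 FPKM in the others. Gm43258 was at 2.09 FPKM in wild-type replicate 4 with 0 to 0.520 FPKM in the other wild-type samples. Gm43149, in Hipk1, was at 0.583 FPKM in wild-type replicate 4 and at 0 in the other 5 wild-type samples, while knockout replicates 2 to 5 had 0.486, 0.491, 0 and 0.279 FPKM (limma adjusted p = 0.660).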

How the results depend on the processing

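The number of sense intronic genes called was 0 under every alternative but 1: leaving out a sample in turn gave 0 to 1, the 1 being Gm43462 without wild-type replicate 1. That was the only wild-type sample with Gm43462 at 0, so leaving it out separates the genotypes by construction. All 11 log2 differences of the reported genes with the smallest p kept their sign in each alternative in which the gene was tested. Some alternatives leave the differences unchanged. The log2 difference of AC154492.2 ran from 0.33 (common sum per sample) to 0.53. The median over members stayed within the spread between samples; rescaling to a common sum moved the median of all genes to -0.18 and that of the members to -0.13, with 86 of 141 lower in place of 73. With a gap of at least 1 on the log2 scale, knockout replicate 5 was highest or lowest in 1 member in place of 37. Replicate numbers 3, 4 and 5 occur in both genotypes, but samples share only a number (correlations of deviations -0.05, 0.04 and -0.03, with 1 of 3 best with its own number); with a replicate block 0 members were called and the median was -0.02. A mean filter of 1 FPKM left 18 members. Depth is a limit: 68 members average under 10 fragments.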

Other observations

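Some single-exon and spliced genes were read in only 1 or 2 libraries, of either genotype. Gm20274, in Rbbp6, was at 2.97 FPKM (41.8 fragments), Gm28119 at 2.18 FPKM (15.6 fragments) and Gm14376, in Cttn, at 1.55 FPKM (11.1 fragments) in knockout replicate 3, and all 3 were listed at 0 in the other 9 samples. Gm19409, in the first intron of Mapre3, the gene of a protein that binds growing microtubule ends, was at 1.35 FPKM in knockout replicate 3 and 0.857 FPKM in knockout replicate 5 and at 0 in the other 8 samples (limma adjusted p = 0.578). Others were read in a single wild-type library and listed at 0 in every other sample. Gm29170, in Uchl5, was at 1.58 FPKM and Gm43378, in Rnf216, at 1.24 FPKM in wild-type replicate 5. Gm43331, in Rap1a, was at 1.37 FPKM in wild-type replicate 1, and AC132307.1, in Zfp532, at 1.00 FPKM in wild-type replicate 6. All these genes, other than Gm19409, were picked after their values were seen.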
